A study of Mus musculus with 16 samples.

Results

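The question here was whether a cell line with a mutated Pygo2 answers Wnt3a differently from a cell line with the normal gene. The quantity described is the difference between 2 responses, the change under Wnt3a in the mutant line minus the change in the wild-type line. It was formed from 8 libraries of messenger RNA out of the 16 in the series, 2 in each of 4 groups. Both lines came from mammary tumours of FVB/N mice carrying the MMTV-PyMT transgene, in which a mammary virus promoter drives the polyoma middle T oncogene. Line 631 is Pygo2 +/+ and is called WT here, and line 828 is homozygous for the A342E knock-in and is called AE. All cells were kept in medium with 10% fetal bovine serum. The treated groups received 100 ng/ml Wnt3a for 3 days, with medium and ligand renewed every day, and the control groups of the same experiment were untreated. Each genotype is represented by 1 line, so an effect of the allele and any other difference between these lines cannot be told apart. The submitters describe the libraries as biological duplicates without saying how the cultures were separated, so a p-value measures no more than how far these samples scatter, which may be technical.

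Wnt ligands bind Frizzled receptors and Lrp5 or Lrp6 co-receptors, which blocks the complex that marks beta-catenin for destruction. Beta-catenin then enters the nucleus, binds TCF and LEF factors on DNA and recruits Bcl9 and Pygo proteins. Pygo2 carries a PHD finger that reads methylation on histone H3, and the A342E allele alters that finger. Many direct targets of the pathway, such as Axin2, Nkd2, Znrf3 and Rnf43, feed back to restrain it, and in the mammary gland the pathway supports stem and basal cells.

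The 8 libraries held 21596028 to 24582688 counts each, and 12731 of 19665 genes were tested. The first principal component held 69% of the variance and separated the lines. Replicates of a group lay far apart, and across genes the log2 ratio of a pair had an SD of 0.92 in untreated WT, 0.85 in treated WT, 0.74 in untreated AE and 0.36 in treated AE. This ratio (replicate 1 to replicate 2) followed the GC content of the transcript, and its Spearman rho over genes was -0.80, -0.67, 0.70 and 0.28 in that order. Both replicate 2 libraries of the AE line held more Lars2 than the other 3-day libraries, 0.128% and 0.157% of counts. The line labels were checked with genes restricted to 1 line in the 4-day libraries of the series, untreated and TGF-beta-treated alike. Such genes were above 10 CPM in all these libraries of 1 line and below 0.2 CPM in all those of the other. The 4 genes seen only in WT there stood at 12 to 394 CPM (counts scaled to the library size) in the WT libraries and at 0 to 0.858 CPM in the AE libraries, and the homeobox gene Nkx2-3 among them was at 0 in all 4 AE libraries. A count of 0 in these libraries allows up to 0.122 to 0.139 CPM, for counting error only. The 43 genes seen only in AE stood at 0.195 to 417 CPM in AE and at 0 to 1.74 CPM in WT. The 5 epithelial markers summed to 1380 to 3010 CPM in every group, and the 8 immune markers to at most 7.97 CPM. The 8 fibroblast markers summed to 243 to 354 CPM in untreated AE, 166 to 176 CPM in treated AE, 13.8 to 15.6 CPM in untreated WT and 6.22 to 6.39 CPM in treated WT.

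The response to Wnt3a itself was present in both lines. Axin2, the scaffold of the destruction complex and the most general target of the pathway (chromosome 11, 108917828 to 108950783, GRCm38.p6), stood at 0.151 and 0.287 CPM in untreated WT and at 122 and 72.9 CPM in treated WT. In AE it went from 3.38 and 2.52 CPM to 90.8 and 62.7 CPM. The treated libraries of the lines overlapped, while the untreated AE libraries lay above the untreated WT ones. Tnfrsf19, a receptor of the tumour necrosis factor family and a known Wnt target (chromosome 14, 60963834 to 61046855), went from 1.02 and 1.82 CPM to 52.9 and 48.4 CPM in AE, while WT held 0.201 and 0 CPM untreated and 1.56 and 0.391 CPM treated. Their promoters are shown because these genes had the largest increases among the Wnt targets that passed in AE, and TCF and LEF factors bind a core motif. The sequence is from RefSeq on GRCm38.p6, the 250 bases before a transcription start, read 5′ to 3′ on the gene's strand, with the motif CTTTGAT or its reverse complement ATCAAAG in capitals.
Axin2 (chr11:108920099-108920348, plus strand): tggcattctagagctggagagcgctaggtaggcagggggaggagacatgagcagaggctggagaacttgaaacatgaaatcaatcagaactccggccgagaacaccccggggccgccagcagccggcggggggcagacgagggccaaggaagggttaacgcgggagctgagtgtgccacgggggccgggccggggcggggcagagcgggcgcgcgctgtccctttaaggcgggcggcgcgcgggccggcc
Tnfrsf19 (chr14:61037988-61038237, minus strand): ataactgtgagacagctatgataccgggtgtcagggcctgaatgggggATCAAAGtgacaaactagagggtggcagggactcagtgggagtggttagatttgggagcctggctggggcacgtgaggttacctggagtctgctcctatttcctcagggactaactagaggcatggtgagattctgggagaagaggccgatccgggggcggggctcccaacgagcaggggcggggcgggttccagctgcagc
Both printed windows lie before inner starts, within the gene spans given above. The Axin2 window holds no match, and the Tnfrsf19 window holds 1. No window before the outer end of the Axin2 span was searched. The window before the outer Tnfrsf19 start (chr14:61046856-61047105), not printed, holds none. The motif, searched on both strands, was in 3.21% of all 32851 mouse promoters of this length, in 2.32% of the 12897 promoters of genes tested, in 2 of the 20 promoters listed for 13 of the 24 Wnt targets, and in 0 of the 7 promoters listed for 6 of the 8 genes described next. A match is a run of letters and was not tested as a binding site.

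The response differed between the lines for 8 genes, 0.0628% of the 12731 tested, at an adjusted p below 0.05. The response of AE lay below that of WT for Adcy1, Igf1, Col2a1, Meltf and Col27a1 (0.0393% of genes) and above it for Tns4, Runx3 and Bcl11b (0.0236%). At an unadjusted p below 0.05 there were 880 genes (6.91%). The changes in AE and WT did not overlap for any of the 8, and for 19.9% of all genes. Every q given here is a p from edgeR's quasi-likelihood test adjusted by Benjamini-Hochberg over all genes tested, and differences are on the log2 scale as AE minus WT, with the SE. None of the 8 calls was left when any 1 of the 8 libraries was removed, in each of the 8 cases, although each log2 difference kept its sign. The difference nearest to 0 in these fits, that of Col27a1, lay between -4.87 and -4.28. Across genes the difference followed GC content (Spearman rho -0.56 over 12288 genes), whose part in the result was not tested gene by gene. After correcting for GC content and length 125 genes passed, 7 of these 8 among them.

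**Figure D1:**
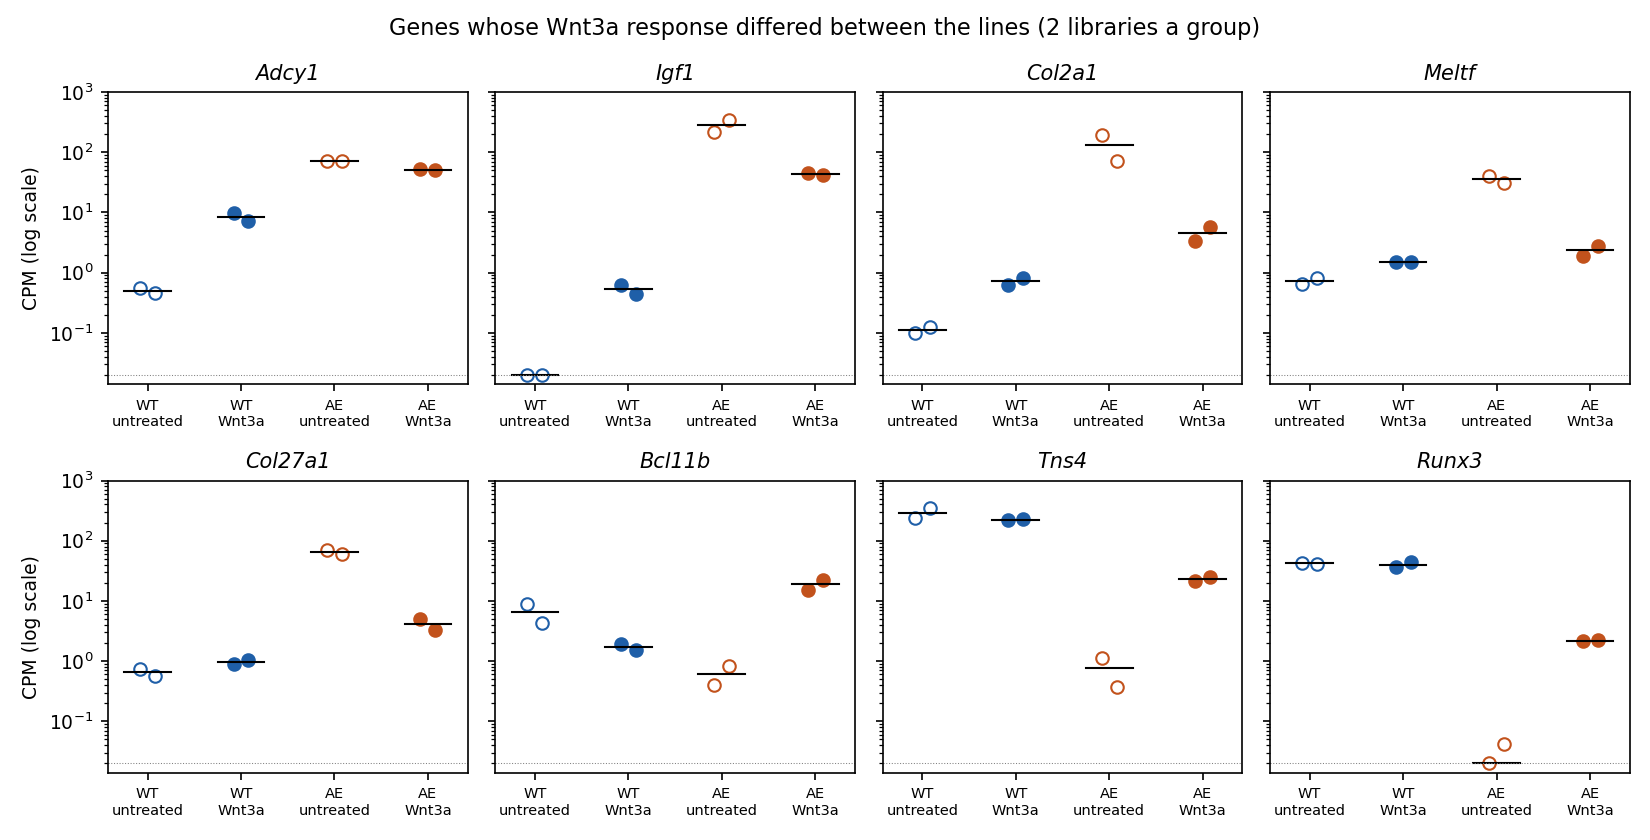
Level of each of the 8 genes in every library (CPM on a log axis, 2 libraries a group as circles, open for untreated and filled for Wnt3a, blue for WT and orange for AE, line at the group mean, values of 0 drawn on the dotted line). Treated AE lies between untreated AE and the WT libraries for Igf1, Col2a1, Meltf, Col27a1, Tns4 and Runx3.

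Among the genes with a lower response in AE, 3 code for a growth factor or for fibrillar collagens and were abundant in untreated AE and under 1 CPM in untreated WT. Igf1, the growth factor that signals through the insulin-like growth factor receptor (chromosome 10, 87858265 to 87937047), stood at 219 and 347 CPM in untreated AE and at 44.9 and 42.3 CPM in treated AE. In WT it had 0 counts in both untreated libraries and 0.624 and 0.435 CPM with Wnt3a. Igf1 therefore fell in AE by 2.70 on the log2 scale (SE 0.36, q = 0.009) and was at least 7.79-fold higher in treated WT, set against 3 counts over the untreated group, where the test was not passed (q = 0.064). Its fitted difference of -9.35 ± 1.02 (q = 0.042) rests on the untreated WT libraries being at 0 and is no bound. Col2a1, the collagen of cartilage (chromosome 15, 97975602 to 98004724), stood at 193 and 70.6 CPM in untreated AE and at 3.33 and 5.64 CPM in treated AE. The WT libraries held 0.100 and 0.123 CPM untreated and 0.624 and 0.826 CPM treated. Col2a1 fell in AE by 4.88 (SE 0.57, q = 0.005), and the difference was -7.51 ± 0.91 (q = 0.042). In WT the change of 2.63 ± 0.77 did not pass (q = 0.28) and started from 5 counts over the untreated group. A fall there could hardly show, so the size of the difference rests on a WT level near 0. Col27a1, another fibrillar collagen (chromosome 4, 63214009 to 63334991), went from 69.9 and 60.7 CPM to 5.01 and 3.32 CPM in AE. In WT it stayed between 0.575 and 1.04 CPM in all 4 libraries. The 29 counts over its untreated WT group left little room for a fall there. Its fall in AE was 3.97 on the log2 scale (SE 0.42, q = 0.004) and the difference -4.51 ± 0.59 (q = 0.049), which did not pass with the correction for GC content and length (q = 0.054).

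Meltf, which codes for the iron-binding surface protein melanotransferrin (chromosome 16, 31878629 to 31899020), had the same course. It stood at 40.2 and 31.1 CPM in untreated AE and at 1.92 and 2.78 CPM in treated AE, beside 0.653 and 0.822 CPM in untreated WT and 1.52 CPM in both treated WT libraries. The log2 change in AE was -3.92 ± 0.45 (q = 0.005) and the difference -4.95 ± 0.62 (q = 0.042). Untreated WT held 33 counts of Meltf over the group, so a fall in WT had little room here as well. Adcy1, an adenylate cyclase that makes cyclic AMP (chromosome 11, 7063433 to 7178506), is the member for which WT moved. It rose in WT from 0.552 and 0.452 CPM to 9.72 and 7.18 CPM, a log2 change of 4.06 ± 0.39 (q = 0.005). In AE it was already at 71.1 and 70.4 CPM without treatment and stood at 52.1 and 50.4 CPM with Wnt3a (log2 change -0.47 ± 0.32, q = 0.78). The difference was -4.53 ± 0.50 (q = 0.042), and the treated WT libraries remained below all AE libraries.

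The genes with a higher response in AE code for 2 transcription factors and an adhesion protein. Tns4, a member of the tensin family (chromosome 11, 99065678 to 99089306), stood at 1.14 and 0.372 CPM in untreated AE and rose to 21.2 and 25.3 CPM with Wnt3a. In WT it was at 234 and 347 CPM untreated and at 219 and 228 CPM treated. The log2 change was 4.93 ± 0.52 in AE (q = 0.004) and -0.38 ± 0.42 in WT (q = 0.72), and the difference was 5.31 ± 0.66 (q = 0.042). Runx3, a Runt-family transcription factor (chromosome 4, 135120645 to 135177990), had 0 and 0.041 CPM in untreated AE, a single count, and 2.15 and 2.24 CPM in treated AE. The ratio in AE has a 95% counting interval of 18.8 to 4260, and the change passed (q = 0.004). In WT Runx3 was at 42.2 and 41.7 CPM untreated and 36.1 and 43.9 CPM treated, and the fitted difference was 6.48 ± 0.82 (q = 0.042). Bcl11b, a zinc-finger transcription factor also known as Ctip2 (chromosome 12, 107910403 to 108004145), rose in AE from 0.407 and 0.827 CPM to 15.3 and 22.4 CPM (log2 change 4.92 ± 0.62, q = 0.006). WT held 8.89 and 4.35 CPM untreated and 1.96 and 1.52 CPM treated, a change of -1.92 ± 0.55 that did not pass (q = 0.26). Bcl11b is the member whose lines changed places, with WT above AE before treatment and AE above WT after it, and its difference was 6.84 ± 0.82 (q = 0.042).

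The untreated levels could be compared with untreated libraries of the separate 4-day experiment, which do not enter the test. There Igf1 stood at 0 CPM in both WT libraries and at 296 and 300 CPM in AE. Col2a1 stood at 0.50 and 0.99 CPM in WT and at 141 and 114 CPM in AE, and Col27a1 at 0.54 and 0.75 CPM against 61.1 and 56.7 CPM. Tns4 was at 230 and 241 CPM in WT and at 0.36 and 0.40 CPM in AE, and Runx3 at 37.3 and 52.5 CPM against 0.14 and 0.11 CPM. For these genes the gap between the untreated lines was present in both experiments. Bcl11b was at 2.87 and 2.12 CPM in WT and 0.45 and 0.58 CPM in AE, a narrower gap than at 3 days.

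The next genes in order of p value did not pass and are given as values. Of those lower in AE, Cdhr1, a cadherin-related protein, stood at 146 and 225 CPM in untreated AE and 64.2 and 44.0 CPM in treated AE, against 3.72 and 4.23 CPM and 15.5 and 13.9 CPM in WT (difference -3.66 ± 0.49, q = 0.051). Col4a1, a chain of basement membrane collagen, stood at 557 and 455 CPM in untreated AE and at 70.7 and 62.6 CPM in treated AE, and all 4 WT libraries were at 1.10 to 2.14 CPM (difference -3.49 ± 0.48, q = 0.055). Lama3, a laminin chain of epithelial basement membrane, was at 61.4 and 50.6 CPM in untreated AE and 3.92 and 8.62 CPM in treated AE. In WT Lama3 was at 46.5 and 38.2 CPM untreated and 69.4 to 86.3 CPM treated (difference -4.04 ± 0.58, q = 0.061). This gene is an exception to the pattern above, since the lines were close to each other without treatment. The co-receptor Boc of the Hedgehog pathway had a difference of -3.77 ± 0.52 (q = 0.055) and the syndecan Sdc3 one of -3.34 ± 0.48 (q = 0.061).

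On the higher side, the filling genes were Fgf13, Hhip, Klf4, S100a14, Dynap, Cemip and Hlf, with q from 0.056 to 0.11. Klf4, a transcription factor of epithelial differentiation, stood at 3.18 and 1.12 CPM in untreated AE and at 37.8 and 52.1 CPM in treated AE, against 145 and 70.2 CPM and 95.9 and 72.8 CPM in WT (difference 4.74 ± 0.75, q = 0.082). Dynap was at 0.529 and 0.289 CPM in untreated AE, at 32.2 and 8.62 CPM in treated AE and at 449 to 724 CPM in the WT libraries. Hhip, the Hedgehog-binding inhibitor, was at 1.02 and 0.289 CPM in untreated AE, 32.3 and 22.3 CPM in treated AE and 37.5 to 98.4 CPM in WT. In all 3 the treated AE libraries lay between the untreated AE libraries and WT. Cemip, a hyaluronan-degrading protein, was low in both untreated lines, at 1.15 to 1.75 CPM, and stood at 37.7 and 34.9 CPM in treated AE and 2.90 and 1.87 CPM in treated WT (difference 3.53 ± 0.60, q = 0.107). Hlf, a circadian transcription factor, fell in WT from 24.3 and 22.1 CPM to 0.758 and 0.783 CPM (q = 0.019), while AE held 16 to 38.1 CPM untreated and 12.6 and 21 CPM treated (difference 4.21 ± 0.72, q = 0.11).

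None of the 24 Wnt target genes tested passed in the difference, and 6 had an unadjusted p below 0.05 with edgeR, where 6.91% of all genes did. Under other settings the number that passed was 2 with DESeq2, with the correction for GC content and length or with the replicate block crossed between the lines, 1 with no filter on low counts, 4 with all 16 libraries, 5 with the untreated libraries of both times and 5 with the replicate block within each line, or 6 with that block and the correction together. Over all genes the counts in that order were 180, 125, 148, 50, 308, 627, 706 and 744. They are out of 12731 genes, but out of 18251 with no filter and out of 13172 in the settings with 4-day libraries. The median difference over the 24 was 0.47, beside -0.02 over all genes. The 10 feedback inhibitors had a median of -0.34 and the 14 other targets 0.63. In WT 1 of the 24 passed, higher, where 0.157% of all genes passed, and in AE 4 of the 24 passed, all higher, where 2.8% of all genes passed. That more passed in AE is not a test of the difference.

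Axin2 had the lowest difference of the 24. It rose by 8.73 ± 0.57 in WT (q = 0.001) and by 4.70 ± 0.45 in AE (q = 0.003), and the difference of -4.03 ± 0.65 did not pass (q = 0.082). It passed under 8 of 22 alternatives, among them the correction for GC content and length (q = 0.0415), all 16 libraries (q = 0.00542) and DESeq2 (q = 7.04e-05), and over all 22 q ran from 7.04e-05 to 0.906. The 4 changes in WT all lay above the 4 in AE, as for 10.4% of all genes in that direction. The treated levels overlapped and the untreated ones did not. The untreated WT level rests on 10 counts over the group, so the size of the WT rise and of the difference depends on a value near 0. The untreated gap had the same sign in the 4-day experiment, at 0.382 and 0.424 CPM in WT against 4.50 and 7.75 CPM in AE. Nkd2, an inhibitor of Dishevelled, rose in AE from 115 and 47.4 CPM to 352 and 349 CPM (q = 0.042), while WT was at 241 to 384 CPM in all 4 libraries (difference 2.49 ± 0.61, q = 0.27). Cd44, the hyaluronan receptor, rose in AE from 71.4 and 73.7 CPM to 395 and 283 CPM (q = 0.044). WT held 1111 and 548 CPM untreated and 1290 and 653 CPM treated, so that the treated AE libraries stayed below all of WT (difference 2.00 ± 0.65, q = 0.48). Tnfrsf19 rose in AE by 5.15 ± 0.84 (q = 0.015), with a difference of 1.83 ± 1.49 (q = 0.72) that turned to -2.40 without untreated WT replicate 1.

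Rnf43, a ubiquitin ligase that removes Frizzled receptors, had similar changes in the lines, 2.27 ± 0.45 in WT (q = 0.093) and 1.73 ± 0.42 in AE (q = 0.069). Its levels were 0.603 to 4.39 CPM in WT and 10.2 to 43.6 CPM in AE. Notum, the secreted enzyme that inactivates Wnt proteins, was scattered, with 2.11 and 9 CPM in untreated WT, 16.4 and 74.5 CPM in treated WT, 0.896 and 0.041 CPM in untreated AE and 5.64 and 8.17 CPM in treated AE. Lef1, the DNA-binding partner of beta-catenin, was nearly absent from WT (0.0435 to 0.151 CPM) and stood at 2.32 and 2.90 CPM in untreated and 7.01 and 12.3 CPM in treated AE (q = 0.096 in AE). The stem cell receptor Lgr5 was at 0 to 0.0446 CPM in WT and at 2.85 to 14.1 CPM in AE. Wif1 and Nkd1 were likewise at most 0.0891 CPM in WT. These 4 genes thus stayed near 0 in WT with and without Wnt3a. Among the targets tied to growth, Myc had a difference of -0.81 ± 0.45 (q = 0.72) and the cyclin Ccnd1 one of -0.70 ± 0.59 (q = 0.72).

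**Figure D2:**
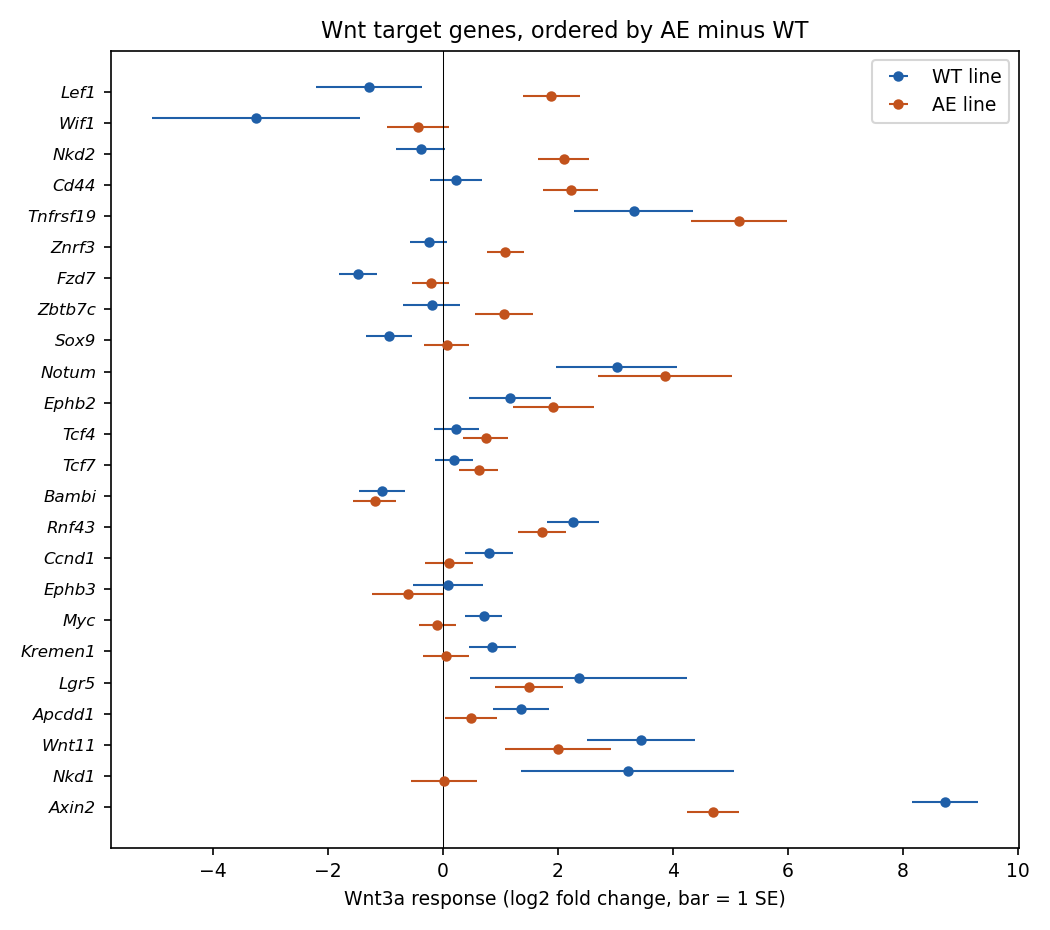
Change under Wnt3a (log2 fold change, bars of 1 SE) of the 24 Wnt targets in WT (blue) and AE (orange), ordered by the difference AE minus WT. Axin2 is at the bottom with 8.73 in WT and 4.70 in AE, and Lef1 at the top.

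Components of the pathway itself were also measured. Pygo2 (chromosome 3, 89430114 to 89435131) stood at 48.1 and 52.3 CPM in untreated WT, 53.6 and 60.4 CPM in treated WT, 56.5 and 54.1 CPM in untreated AE and 56.1 and 57.8 CPM in treated AE. Both untreated WT libraries lay below the other 6, whose groups overlapped, and the difference of -0.14 ± 0.39 did not pass (q = 0.90). A point mutation need not change the level of its transcript, so these values do not check the allele. None of 25 genes of the Wnt enhanceosome, 15 of the destruction complex and Dishevelled, 17 receptors or 15 subunits of H3K4 methyltransferase complexes passed in the difference, with medians of -0.14, 0.32, -0.21 and 0.13. With the correction for GC content and length the medians of the enhanceosome and receptor lists turned to 0.28 and 0.02, and that of the methyltransferase list was -0.01 under total-count scaling. The receptor list also turned under DESeq2 and limma voom, to 0.11 and 0.22. Members of these lists passed under other settings. With the replicate block within each line 4 receptors and 1 methyltransferase gene passed, all higher, where 360 of all 12731 genes passed higher. With the untreated libraries of both times 2 receptors passed higher and 2 lower, and 1 and 2 enhanceosome genes, beside 322 and 281 of all genes. Of 16 Wnt ligands and secreted antagonists none passed in the difference either, and their median was -1.03. With DESeq2 1 of them passed higher and 1 lower, beside 101 and 79 of all genes. Wnt5b, a ligand of the beta-catenin-independent branch, fell in AE from 227 and 238 CPM to 59.6 and 60.4 CPM (q = 0.016) and was at 1.76 to 5.87 CPM in WT (difference -3.22 ± 0.47, q = 0.062). Ror1, a receptor for such ligands, rose in AE from 12.6 and 20.2 CPM to 73.1 and 92.6 CPM (q = 0.035), and WT was at 20.3 to 42.9 CPM throughout (difference 2.17 ± 0.64, q = 0.40).

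Wnt3a changed 20 genes in WT (0.157%), 14 higher (0.11%) and 6 lower (0.0471%), and 357 genes in AE (2.8%), 208 higher (1.63%) and 149 lower (1.17%). The count in AE depended on single libraries and was 36 without treated AE replicate 1, 44 without untreated AE replicate 2, 51 without treated AE replicate 2 and 155 without untreated AE replicate 1. In WT the count was 4 without untreated replicate 2, 8 without treated replicate 1 and 10 without treated replicate 2. It was 12 without any 1 of the AE libraries. With a replicate block within each line more genes passed in WT than in AE, 1646 against 1328. With that block and the correction for GC content and length together the counts were 1321 and 2011. In the fit without a block, the 13 genes that passed in both lines (0.102% of genes) moved in the same direction in each. Those higher in both were Axin2, Cyp4f39, Gimap8, Stra6, Mab21l4, Moxd1, Fjx1, C1qtnf1, Slc7a7, Idi2 and Cdkn2b, and those lower were Hey1 and Homer2. They are named after their values were seen.

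Stra6, the retinol transporter, went from 0 counts to 71.1 and 115 CPM in WT and from 0.041 and 0.248 CPM to 141 and 111 CPM in AE, and the treated libraries overlapped. Its rise in WT was at least 1380-fold against 3 counts over the untreated group. Mab21l4 rose from 8.29 and 9.49 CPM to 144 and 176 CPM in WT and from 1.75 and 1.28 CPM to 49.9 and 42.9 CPM in AE (difference 0.76 ± 0.44, q = 0.72). Cdkn2b, which codes for the CDK4 and CDK6 inhibitor p15, rose from 13.6 and 12.1 CPM to 87.9 and 101 CPM in WT and from 7.86 and 5.13 CPM to 42.5 and 48.0 CPM in AE (difference -0.08 ± 0.47, q = 0.96). The sign of so small a difference turned under some settings. Hey1, a repressor induced by Notch, fell from 29.4 and 34.4 CPM to 1.96 and 1.74 CPM in WT and from 180 and 172 CPM to 15.9 and 21.3 CPM in AE (difference 0.86 ± 0.42, q = 0.72). The untreated levels of Hey1 did not overlap between the lines.

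**Figure D3:**
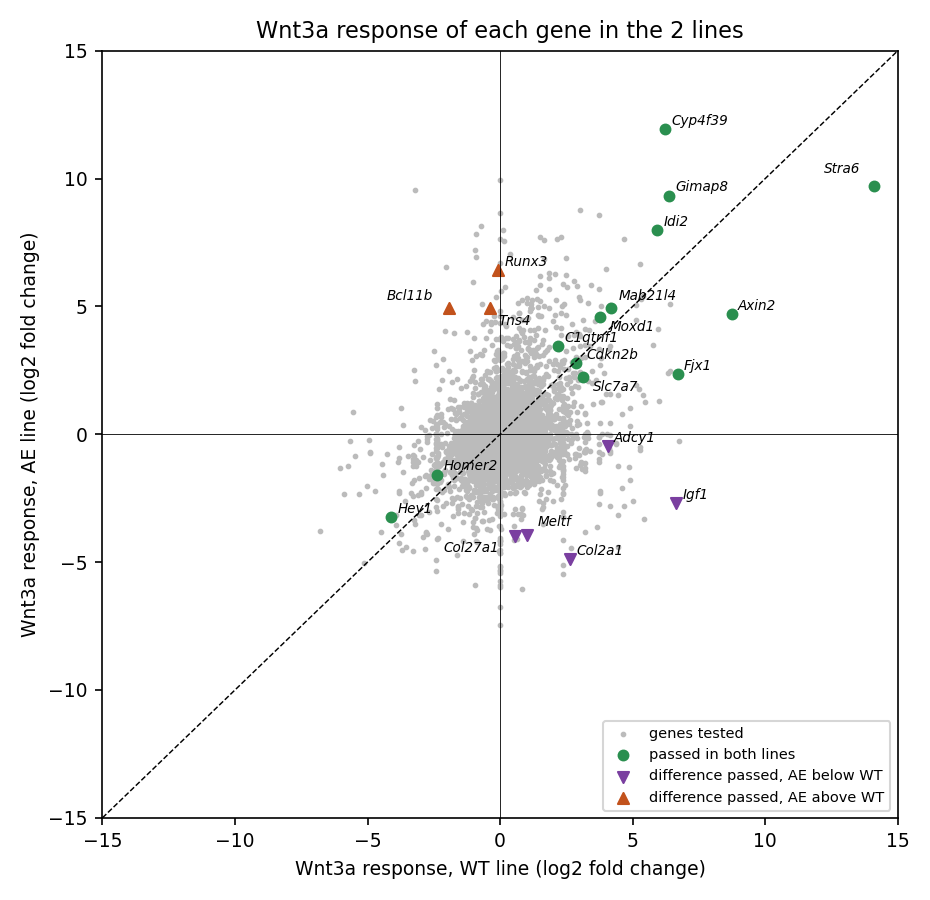
Change under Wnt3a in WT (horizontal) and in AE (vertical), as fitted log2 fold changes, for the 12731 genes tested, with the line of equal response dashed. The 13 genes that passed in both lines are green, and the 8 genes whose difference passed lie away from the dashed line. Fold changes of genes at 0 counts in a group depend on the prior count.

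The 27 gene lists were described by counts and medians. Collagen and matrix genes were the only list with a member that passed, Col27a1. Of the 24 genes 22 had a negative difference, where 6468 of all 12731 did, and the median was -1.59. It lay between -1.99 and -1.13 under the 14 other settings computed for lists, none of which leaves out a single library. Of the 24, 4 fell in AE, where 1.17% of all genes did, the named Col27a1, Col4a1 and Lama3 and the basement membrane collagen Col4a2, which went from 593 and 374 CPM to 58.6 and 51.7 CPM (q = 0.010). None of the 24 passed in WT, where the median change was 0.89. The remaining 2 members had a difference above 0, and 10 of the 24 had AE changes below WT without overlap, where 10.4% of all genes did. The summed level of the fibroblast markers was also lower in treated than in untreated AE, but their members went both ways. Of the 7 tested none passed as lower in AE and 1 passed as higher, the proteoglycan Dcn, and 4 differences were above 0 and 3 below. Their part in the result was not tested.

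G2 and mitosis genes had a median difference of 0.62, the highest of the lists in this fit, with 28 of 30 above 0 and none passing with edgeR or DESeq2. Their median change was below 0 in both lines, -0.84 in WT and -0.24 in AE. The positive difference thus reflects a smaller fall in AE and not a rise. Of the 30 genes, 2 had an AE change above WT without overlap, against 9.44% of all genes, and none had an unadjusted p below 0.05. The proliferation marker Mki67 was at 1531 and 1014 CPM in untreated WT, 634 and 248 CPM in treated WT, 441 and 780 CPM in untreated AE and 534 and 408 CPM in treated AE (difference 1.15 ± 0.71, q = 0.72). With the correction for GC content and length the median of the G2 and mitosis genes was 0.48. The keratins and the inflammatory cytokines (0.67 each), the immediate early genes (0.52) and the epithelial junction genes (0.51) lay above it. With the untreated libraries of both times their median was 0.49. There the keratins (0.76), the cholesterol and fatty acid synthesis genes (0.52) and the inflammatory cytokines (0.50) lay above it. The topoisomerase Top2a had a difference of 1.23 ± 0.70 (q = 0.72). The replicates of both genes lay far apart. For Mki67 the treated and untreated libraries overlapped in AE but not in WT.

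Luminal and milk genes had no member that passed in the difference, and 5 of 16 fell in AE, where 1.17% of all genes did, with none rising. Members passed in the difference under other settings. With DESeq2 1 passed higher and 3 lower, beside 101 and 79 of all genes. With the replicate block within each line 2 passed higher and 2 lower, beside 360 and 346 of all genes. Csn3, which codes for kappa-casein of milk, went from 646 and 486 CPM to 9.40 and 7.63 CPM in AE (q = 0.002) and was at 0 to 0.087 CPM in WT. Kit, a receptor tyrosine kinase of luminal progenitors, went from 315 and 387 CPM to 61.6 and 76.9 CPM in AE (q = 0.015) and was at 0 to 0.0435 CPM in WT. At these levels neither Csn3 nor Kit could show a fall in WT. Aldh1a3, a retinoic acid-forming enzyme of luminal progenitors, fell in AE from 27.9 and 32.2 CPM to 4.58 and 2.57 CPM (q = 0.013), and WT held 5.59 to 9.69 CPM throughout (difference -2.93 ± 0.64, q = 0.21). Btn1a1, a butyrophilin of the milk fat globule, was at similar levels in both untreated lines. It fell in AE from 85.5 and 82.0 CPM to 24.2 and 22.3 CPM (q = 0.017), and in WT it was at 69.8 and 55.2 CPM untreated and 140 and 94.9 CPM treated (difference -2.76 ± 0.44, q = 0.082). Lcn2, the lipocalin, was at 86.4 and 180 CPM in untreated WT, 13.9 and 19.0 CPM in treated WT, and 782 to 1472 CPM in AE (difference 2.44 ± 0.60, q = 0.27).

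Of 17 keratins 3 rose in AE, where 1.63% of all genes did. They were Krt6b, Krt16 and Krt4, all of the squamous type, and no keratin passed in the difference. Of 20 p53 targets and CDK inhibitors 3 rose in AE (1.63% of all genes) and 1, Cdkn2b, in WT (0.11% of all genes). Gadd45a, a stress-induced growth arrest gene, rose in AE from 12.7 and 10.6 CPM to 160 and 239 CPM (q = 0.002) and stood at 8.69 and 6.45 CPM in untreated and 25.1 and 23.4 CPM in treated WT (difference 2.42 ± 0.46, q = 0.14). Among 20 mesenchymal genes Vim, the intermediate filament of mesenchymal cells, fell in AE from 1095 and 1016 CPM to 296 and 256 CPM (q = 0.0499), with 27.8 to 83.3 CPM in WT (difference -2.72 ± 0.59, q = 0.21). Epithelial junction genes had a median difference of 0.12 and none passed in either line. Epcam was at 389 to 565 CPM and Cdh1 at 468 to 779 CPM in all 8 libraries.

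**Figure D4:**
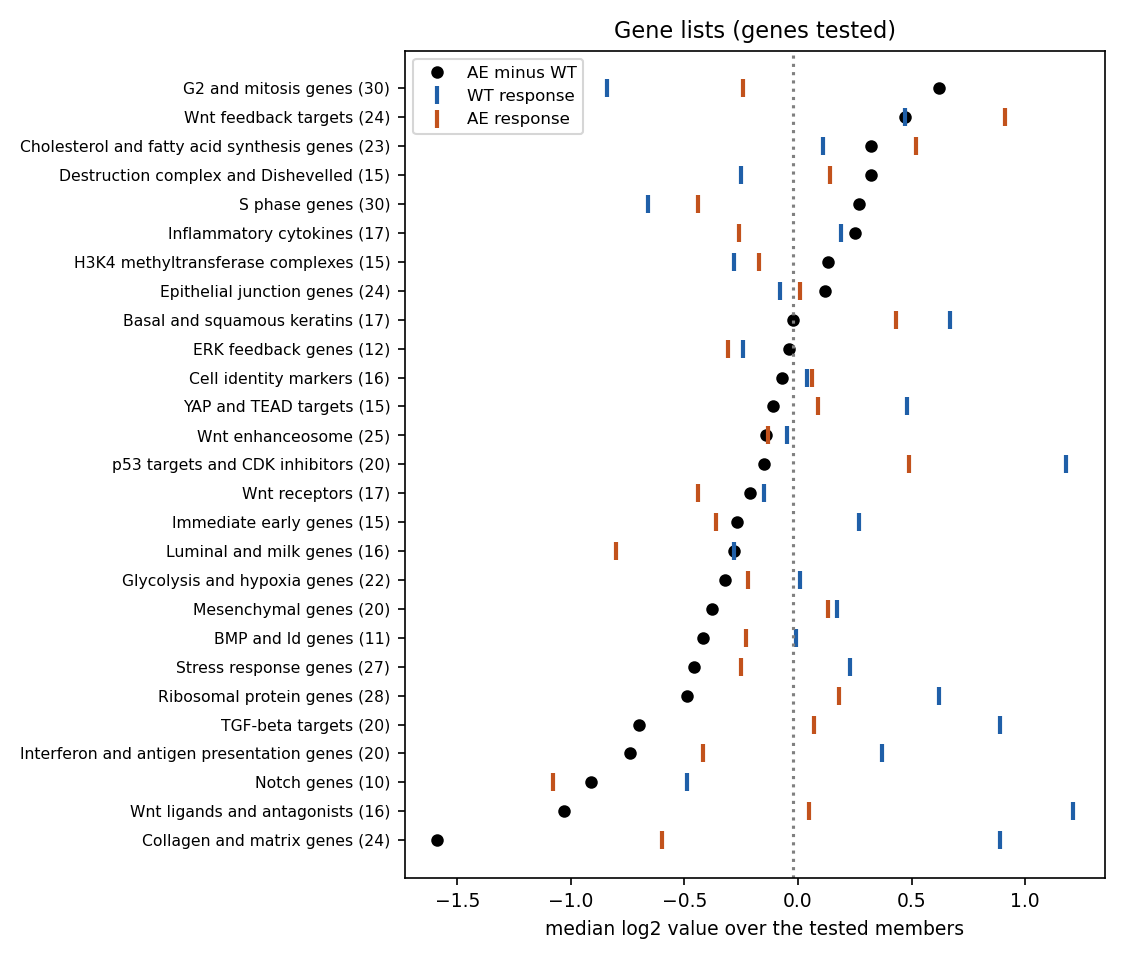
Median over the tested members of each gene list (number tested in parentheses) of the log2 difference AE minus WT (black points) and of the response in WT (blue ticks) and AE (orange ticks), with the median difference of all genes dotted. Collagen and matrix genes are lowest at -1.59 and G2 and mitosis genes highest at 0.62. With the correction for GC content and length the keratins and the inflammatory cytokines are highest, at 0.67 each.

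The position of the treated AE libraries between untreated AE and WT was described over all genes that separate the lines. These were chosen, after the results above were seen, from the untreated 4-day libraries alone, as genes at 5 CPM or more in the higher line with a log2 difference between the lines of at least 3. Of the 518 genes high in AE, 82 fell and 4 rose in AE with Wnt3a, against 149 (1.17%) and 208 (1.63%) of all genes. Their median change in AE was -1.02, with 417 below 0 and 101 above, beside -0.03 over all genes. In untreated WT 340 of the 518 were under 1 CPM, where a fall could hardly show, so their changes in the lines are not compared. Of the 238 genes high in WT, 47 rose and 1 fell in AE. Their median change in AE was 0.89, with 185 above 0 and 50 below. In untreated AE 105 of the 238 were under 1 CPM, so here too the room to fall was small. All 5 genes whose difference passed as lower in AE belong to the first set, and Tns4 and Runx3 to the second. Adcy1 is the gene among these whose change in AE did not pass.

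In each library the median level of either set was compared with the 4-day untreated libraries of the line in which it is high. For the AE-high genes it was -0.11 and -0.14 in untreated AE, -1.24 and -0.99 in treated AE, and -4.46 to -4.28 in the 4 WT libraries. For the WT-high genes it was 0.03 and -0.29 in untreated WT, -0.10 and -0.05 in treated WT, -3.35 and -3.99 in untreated AE and -2.89 and -3.18 in treated AE. The treated AE libraries were thus nearer to WT than the untreated AE libraries on both sets, and remained far from it. On the WT-high set the untreated AE replicates lay further apart than the nearest untreated and treated AE libraries, at -3.35 and -3.18. Genes of that set near 0 in untreated AE could also hardly move away from WT, so its shift is given as values only. The abundant Igfbp5, a secreted binder of insulin-like growth factors, was at 34692 and 39734 CPM in untreated AE, 7020 and 15270 CPM in treated AE and 22.7 to 102 CPM in WT (difference -0.81 ± 0.87, q = 0.74).

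**Figure D5:**
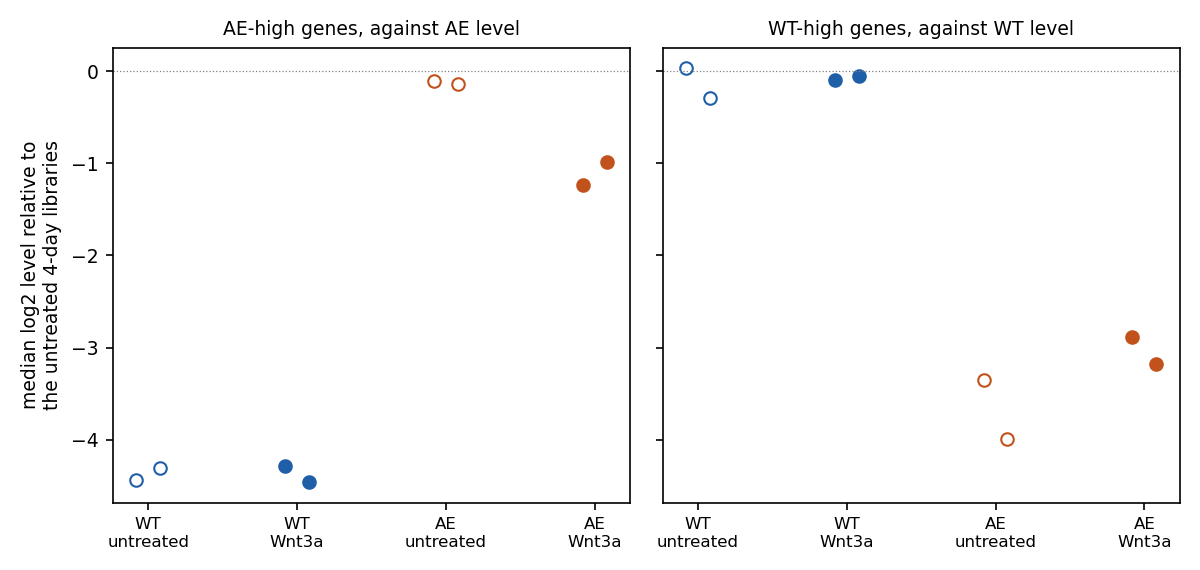
Median log2 level per library of the 518 AE-high genes (left, relative to untreated AE at 4 days) and the 238 WT-high genes (right, relative to untreated WT at 4 days), 2 libraries a group, open for untreated and filled for Wnt3a. The treated AE libraries are at -1.24 and -0.99 on the left and at -2.89 and -3.18 on the right.

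The genes restricted to WT in the label check show how far this reached. In treated AE Nkx2-3 was at 0 in both libraries, and the transcription cofactor Zfpm2 was at 0.078 and 0.622 CPM beside 11.9 to 32.7 CPM in WT. The peptidylarginine deiminase Padi4 was at 0.548 and 0.622 CPM beside 22.4 to 70.5 CPM. Tns4 in the same libraries was at 21.2 and 25.3 CPM beside 219 and 228 CPM in treated WT. The ratios of treated AE to WT differed between genes of the WT-high set. The median change in AE of the AE-high genes was -1.18 to -0.78 when single libraries were left out. That of the WT-high genes was 0.55 without untreated AE replicate 2 and 1.86 without untreated AE replicate 1.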

How the data were processed

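Messenger RNA of 2 cell lines was sequenced as single reads of 75 bases from TruSeq Stranded mRNA libraries made with 200 ng of RNA, per the labels' protocols. STAR and the mm10 build are named in the submitters' processing notes, with no version, and how reads were counted, by strand or not, is not given in the sources used here. Without that, overlapping antisense genes cannot be told apart. The authors deposited a table of whole-number counts of reads per Entrez gene ID for 19665 genes and 16 libraries, although its name speaks of CPM. RefSeq's GRCm38.p6 table named 19613 IDs.

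The 8 libraries of the 3-day experiment were fitted in 1 edgeR quasi-likelihood model with a mean per group, TMM scaling and genes of at least 1 CPM in at least 2 libraries (residual df 4, prior df 5.05, common BCV 0.35). The fit left out the 4-day libraries because the 3-day replicates varied more. The difference was the contrast of the responses, AE minus WT, and its SE was |log2 difference| over the root of F. Genes passed below 0.05 after Benjamini-Hochberg adjustment. CPM values are TMM-scaled. For a bound, 3 counts over the group replaced a group total of 0, and with 1 to 3 counts the ratio has a 95% counting interval. Both cover counting error only. Changes of the lines did not overlap where all 4 treated-minus-untreated changes of 1 line lay above the 4 of the other, on log2 CPM with a prior count of 2.

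Named genes were Pygo2, the Wnt targets, up to 10 passing genes in each direction reaching a mean of 5 CPM in a group and without overlap, filled to 10 by p, and up to 4 passing members of each of 27 gene lists or 2 with the highest CPM. Of these the text names a selection. Genes named outside the rule were chosen after their values were seen, among them the genes passing in both lines, those restricted to 1 line, Igfbp5 and Csn3. The members and lists were chosen with earlier results of these data known.

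Chi-square per degree of freedom between replicates of the 4 groups was 63.1 to 203, so no pair was merged. Of the steps, only the edgeR test of the difference was run on simulated counts. There 100 genes were given a 4-fold and 100 a 16-fold difference, and 18% and 89% of them were recovered. Of 115 calls 8 were false, and most differences of 4-fold were missed in the simulation. Its counts were drawn independently for each library, without the GC-linked deviations of the real replicates. The changed genes were taken from the more abundant ones. The recovery and the share of false calls therefore need not hold for the real libraries. Alternatives were other scalings, filters, tests and libraries, replicate blocks, a GC content and transcript length correction (GENCODE M21, 5 spline degrees of freedom, 96.5% of genes covered among those compared) and each library left out. Replicate blocks crossed between the lines were added after the data were seen. The software was edgeR 4.0.16, DESeq2 1.42.0 and limma 3.58.1 under R 4.3.3, with numpy 2.4.6 under Python 3.11.15.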

Additional observations from a re-analysis of the deposited data

Results flagged for a closer look

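The count of 8 genes whose Wnt3a response differed between WT and AE is listed because the difference itself was tested, and so are its members. Their log2 differences, AE minus WT, were -9.35 for Igf1, -7.51 for Col2a1, -4.95 for Meltf, -4.53 for Adcy1, -4.51 for Col27a1, 5.31 for Tns4, 6.48 for Runx3 and 6.84 for Bcl11b. All 8 had AE and WT changes that did not overlap, as 19.9% of all genes did. Untreated levels differed between the lines before any Wnt3a was given, with AE higher for Igf1, Col2a1, Meltf, Adcy1 and Col27a1 and WT higher for Tns4, Runx3 and Bcl11b. Groups of 2 libraries were too small to look for single libraries that stand apart in a gene.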

How the results depend on the processing

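The 8 differences were not called in any fit without 1 library, which gave 0 calls in each of the 8 fits (462 to 2423 genes at an unadjusted p below 0.05). Without 1 library the response counts were 4 to 22 in WT and 36 to 497 in AE. With both AE replicate 2 libraries left out the counts for difference, WT and AE were 0, 2 and 0 (324 unadjusted for the difference). In the same order they were 13, 30 and 336 with total-count scaling, which moved the median difference of all genes from -0.017 to -0.136, 50, 112 and 547 without a count filter, 180, 277 and 733 with DESeq2, 0, 6 and 831 with limma voom and sample weights (846 unadjusted for the difference), 308, 564 and 1229 with all 16 libraries and 627, 789 and 2029 with the untreated libraries of both times. They were 125, 242 and 1008 with GC content and length correction, where 76 of the 125 were higher in AE against 3 of 8. The cause was not tested.

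The replicate numbers are not tied to a shared culture by the labels. The deviations of same-numbered libraries correlated at 0.76 within WT and 0.45 within AE, and at -0.62 to -0.10 between the lines. A replicate block shared by the lines gave 0, 17 and 283 genes (893 unadjusted for the difference), a replicate block within each line 706, 1646 and 1328, and the same block with GC content and length correction 744, 1321 and 2011. A block crossed between the lines, added after the data were seen, gave 148, 336 and 840.

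Over 70 named genes and all alternatives, 1230 of 1538 log2 differences kept sign and call, 196 became calls, 89 lost a call and 23 changed sign. Lgr5 changed sign with DESeq2 (0.11) and limma voom (0.75), and Notum without both AE replicate 2 libraries (-0.43). Pygo2, Wnt11 and Cdkn2b did so with the untreated libraries of both times (0.07, 0.40 and 0.16). Pygo2, Tcf4 and Cdkn2b did so with the GC content and length correction (0.69, -0.30 and 0.79). With that correction and the replicate block within each line together, Pygo2, Tcf4, Cdkn2b and Rnf43 changed sign (0.69, -0.29, 0.74 and 0.01). With 1 library left out, signs turned for Tnfrsf19 (-2.40 to 3.13), Notum (-0.61 to 4.18), Bambi (-0.33 to 0.01), Ephb2 (-0.75 to 1.44), Nkd1 (-4.14 to 0.02), Lgr5 (-1.73 to 1.5), Cdkn2b (-0.40 to 0.25) and Wnt11 (-2.40 to 0.71). Genes near 0 in an untreated group can show a rise but hardly a fall, which limits differences such as that of Lgr5 in WT.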
